A study of Mus musculus with 7 samples.

Results

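The 36 histone cluster genes described here are those whose names in the authors' deposited table begin with Hist1h, Hist2h, Hist3h or Hist4h, pseudogenes left out, among the 15548 genes of that table. They were joined by identifier to the read counts of 7 messenger RNA libraries of mouse fetal liver, taken at 12.5 days post coitum. There were 3 Pcbp2 knockout libraries, numbered 3 to 5, and 4 wild type libraries, numbered 1 to 4. The labels give the genotype and age, and no strain, sex, litter, or design of the knockout allele. The comparison asks what the loss of Pcbp2, an RNA-binding protein that recognises C-rich stretches, does to these transcripts in the tissue where most blood cells form at that age.

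Histones package DNA: the core histones H2A, H2B, H3 and H4 form the nucleosome, and the linker histone H1 binds the DNA that enters and leaves it. Most genes of the histone clusters are replication-dependent, transcribed in S phase and processed into mRNA that ends just past a conserved stem-loop, bound by Slbp, in place of a poly(A) tail. Some of them also give polyadenylated mRNA, often from a longer or spliced transcript, in cells that leave the cycle and differentiate. The libraries were made with an mRNA kit of the type that selects poly(A) RNA, so counts of these genes need not follow their stem-loop mRNA.

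The members fell into 5 H1, 7 H2A, 12 H2B, 4 H3 and 8 H4 genes, of which 30 lie in the Hist1 cluster, 3 in Hist2, 2 in Hist3 and 1 in Hist4. All 36 were among the 16226 genes with enough reads to be tested. The lowest mean normalized count of any gene in the authors' deposited table was 12.7, so membership itself asks for some reads. The GENCODE M21 annotation names another 30 histone cluster genes in the count files that are not in that table. They reached at most 33 reads in any library, and 7 of them had 0 reads in every library.

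Of the 36 members, 31 matched a coding gene of GENCODE M21 by identifier on build mm10, with 26 on chromosome 13. The search was for a stem of 6 perfect pairs that opens with GG and has T as its last base before a 4-base loop opening with TTT. Such a stem-loop was found after the coding sequence in 25 of these 31. Of all 14795 tested coding genes 36 held one, or 0.243%, of which 11 were not members. The same stem-loop letters, those shown for Hist1h1c, were present in 14 of the 25 members. The stem-loops of the 3 genes that fell in knockout livers are shown with that of Hist1h1e, a linker gene that did not pass the test. Capitals mark the stem-loop.
Hist1h1c stem-loop, chr13:23739507-23739532, plus strand: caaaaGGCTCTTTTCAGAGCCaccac
Hist1h1d stem-loop, chr13:23555782-23555807, plus strand: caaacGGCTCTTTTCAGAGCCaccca
Hist1h1e stem-loop, chr13:23621777-23621802, minus strand: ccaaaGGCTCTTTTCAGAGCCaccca
Hist1h4i stem-loop, chr13:22040961-22040986, minus strand: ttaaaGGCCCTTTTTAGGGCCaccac
The 3 linker genes carried the same stem-loop, while that of Hist1h4i was found in no other member.

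RefSeq promoters, from 250 bases before to 50 bases after the start, were matched for 33 of the 36 members on build GRCm38.p6. The promoters of the same 4 genes are printed because they let the linker genes that fell be set beside one that was not called. Capitals mark 3 motifs on either strand: the CCAAT box, the TATA box in its form TATAAA, and the core of the H1 box in its form AAACACA.
Hist1h1c promoter, chr13:23738557-23738856, plus strand: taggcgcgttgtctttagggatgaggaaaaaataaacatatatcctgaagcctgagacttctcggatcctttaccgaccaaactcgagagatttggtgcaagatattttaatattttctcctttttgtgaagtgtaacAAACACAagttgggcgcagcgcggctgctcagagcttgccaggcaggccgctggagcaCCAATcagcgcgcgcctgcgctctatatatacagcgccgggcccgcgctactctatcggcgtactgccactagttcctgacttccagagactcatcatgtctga
Hist1h1d promoter, chr13:23554782-23555081, plus strand: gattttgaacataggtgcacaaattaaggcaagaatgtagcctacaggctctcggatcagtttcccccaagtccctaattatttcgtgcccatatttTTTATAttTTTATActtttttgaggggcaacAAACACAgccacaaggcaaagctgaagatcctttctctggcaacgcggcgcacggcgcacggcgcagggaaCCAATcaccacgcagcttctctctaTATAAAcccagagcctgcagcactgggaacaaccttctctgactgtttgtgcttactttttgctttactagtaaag
Hist1h1e promoter, chr13:23622509-23622808, minus strand: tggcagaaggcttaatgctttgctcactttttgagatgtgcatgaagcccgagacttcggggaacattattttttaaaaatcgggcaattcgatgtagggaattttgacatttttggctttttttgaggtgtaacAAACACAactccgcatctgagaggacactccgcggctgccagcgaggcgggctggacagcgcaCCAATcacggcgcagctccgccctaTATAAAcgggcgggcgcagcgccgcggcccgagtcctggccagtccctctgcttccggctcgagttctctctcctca
Hist1h4i promoter, chr13:22041313-22041612, minus strand: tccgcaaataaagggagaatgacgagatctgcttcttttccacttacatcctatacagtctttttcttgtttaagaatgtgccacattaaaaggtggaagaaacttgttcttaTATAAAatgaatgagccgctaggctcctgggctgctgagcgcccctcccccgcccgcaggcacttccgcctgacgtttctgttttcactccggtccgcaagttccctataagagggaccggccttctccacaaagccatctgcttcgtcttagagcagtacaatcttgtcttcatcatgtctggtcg
AAACACA stood in 4 of the 5 linker promoters, all but that of Hist1h1a, and in 1 core promoter, that of Hist1h2bm. It began at -112 in Hist1h1c, -122 in Hist1h1d and -115 in Hist1h1e, counted from the start, and a CCAAT followed at -54, -51 and -52 in the same order. Hist1h1c and Hist1h1d thus shared both motifs, at like distances, with Hist1h1e. Over all members CCAAT was found in 81.8% of promoters, against 37.4% of 32851 RefSeq promoters. TATAAA was found in 48.5%, against 13.6%, and AAACACA in 15.2%, against 7.18%. The Hist1h4i promoter held no CCAAT, and its TATAAA lay at -137. CCAAT was also absent from the promoters of Hist1h4b, Hist1h4h, Hist1h4j, Hist1h4m and Hist4h4, all H4 genes that were not called. The TATAAA of Hist1h4m lay at -128. A match says only that these letters occur in the window.

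Reads assigned to genes numbered 31898339, 42378821 and 33593856 in knockout replicates 3 to 5, and 32240949, 40090040, 38753337 and 44544889 in wild type replicates 1 to 4. The members together held between 2564 and 3655 reads in a knockout library and between 4951 and 6016 in a wild type library. A count of 0, which allows up to 3 reads, corresponds to at most 0.102 CPM (counts scaled to library size by TMM), and such limits cover counting error only. Pcbp2 averaged 1.95 ± 0.486 CPM in knockout (SD, n = 3) and 294.7 ± 86.9 CPM in wild type (SD, n = 4). In wild type replicate 1 it was 164.8 CPM, well below the 329.0 to 347.3 CPM of wild type replicates 2 to 4. That level is far above the knockout libraries, and the label is kept, but whether this library is fully wild type is uncertain from these files, and it enters every wild type mean. The main results are therefore also given without it. The labels do not say that the libraries came from separate animals, so p-values cover only the spread among these libraries, which may be technical.

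Hist1h1c, Hist1h1d and Hist1h4i fell (edgeR adjusted p under 0.05), and 0 members rose. The 3 that fell are 8.33% of the members, against 3.43% of all tested genes called lower, and 1.59% of all tested genes were called higher. At an unadjusted p under 0.05 there were 7 lower members, or 19.4%, against 11.8% of all tested genes, and 0 higher members, against 9.98%. Neither DESeq2 nor limma-voom called a member higher. The median log2 fold change was -0.28 over the members and 0.01 over all tested genes, and 24 members were negative and 12 positive. Without wild type replicate 1 the member median was -0.19 and the same 3 members were called, and without knockout replicate 3 the median was -0.09.

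The knockout libraries lay entirely below the wild type ones for 8 members and entirely above for 0. That is 22.2% of the members, against 10.8% of all tested genes below and 9.83% above. The 8 were Hist1h1b, Hist1h1c, Hist1h1d, Hist1h2ac, Hist2h2aa2, Hist1h2bc, Hist2h2bb and Hist1h4i. By the authors' deposited table, at an adjusted p under 0.05, 4 members were lower, against 6.86% of all its genes, and no member was higher, against 4.06%. Beside the 3 named above, that table called Hist1h2bc.

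**Figure D1:**
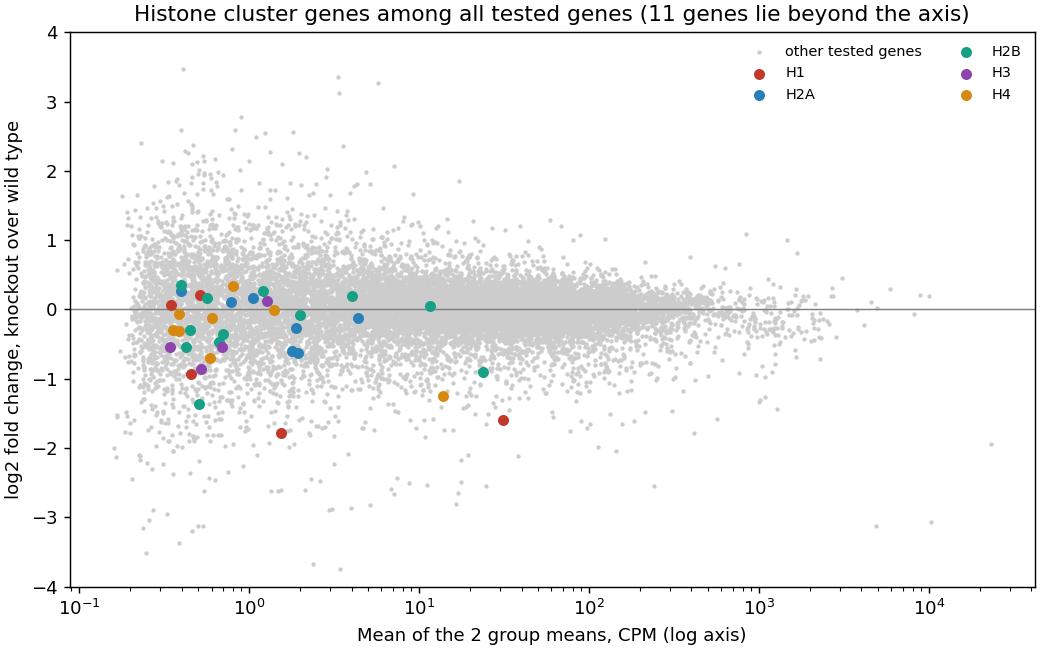
Each point is a gene, placed by the mean of its group means in CPM (log axis) and its log2 fold change, knockout over wild type. Members are coloured by class. Of the 4 members at 10 CPM or more, Hist1h1c, Hist1h2bc and Hist1h4i lie at -0.91 or lower, and Hist2h2be lies at 0.05.

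Hist1h1c, which encodes the main linker histone among these transcripts, was the most abundant member. It had 14.2, 15.6 and 16.5 CPM in knockout replicates 3 to 5, against 64.5, 38.7, 45.7 and 38.2 CPM in wild type replicates 1 to 4. The lowest wild type library was well above the highest knockout library, and wild type replicate 1 was the highest of its group. This was a log2 fold change of -1.60 ± 0.19 (SE; adjusted p = 0.00315 in edgeR), a 3.02-fold lower mean in knockout. Without wild type replicate 1 it was -1.40 (edgeR adjusted p = 0.00195). Hist1h1c made up 18.7 ± 0.618% of the members' summed CPM in knockout and 32.1 ± 3.30% in wild type.

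Hist1h1d, another linker gene, had 0.575, 0.861 and 0.627 CPM in knockout replicates 3 to 5, against 3.35, 2.0, 2.57 and 1.66 CPM in wild type replicates 1 to 4. The groups did not overlap, and wild type replicate 1 was again the highest. This was a log2 fold change of -1.78 ± 0.32 (SE; adjusted p = 0.0144 in edgeR), the lowest of any member. It rests on 19 to 39 reads per knockout library and 72 to 99 per wild type library. Without knockout replicate 5 its adjusted p was 0.0796, so that the call was lost. Without wild type replicate 1 the log2 fold change was -1.58 (edgeR adjusted p = 0.0289).

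The 3 other linker genes had under 1 CPM in every library and did not pass the test. Hist1h1b had 0.272, 0.309 and 0.342 CPM in knockout replicates 3 to 5, against 0.982, 0.464, 0.520 and 0.437 CPM in wild type replicates 1 to 4 (log2 fold change -0.93 ± 0.39; edgeR adjusted p = 0.199). Its groups did not overlap, at no more than 29 reads in a library, and its log2 fold change was -0.61 without wild type replicate 1 (edgeR adjusted p = 0.321). Hist1h1a had 0.333, 0.750 and 0.570 CPM in knockout, against 0.203, 0.781, 0.438 and 0.483 CPM in wild type (log2 fold change 0.20 ± 0.45; edgeR adjusted p = 0.832). Hist1h1e had 0.454, 0.243 and 0.371 CPM in knockout, against 0.406, 0.293, 0.301 and 0.345 CPM in wild type (log2 fold change 0.07 ± 0.36; edgeR adjusted p = 0.934). The groups overlapped for both, and their 95% intervals ran from -0.79 to 1.19 for Hist1h1a and from -0.73 to 0.86 for Hist1h1e.

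Summed over the 5 linker genes, knockout libraries had 17.4 ± 1.32 CPM and wild type libraries 50.6 ± 13.1 CPM (SD, n = 3 and 4), or 0.343 of the wild type mean. Hist1h1c held 89.1 ± 1.05% of that sum in knockout and 92.4 ± 0.604% in wild type, so the linker sum is nearly that gene. The other 4 linker genes together had 1.90 ± 0.265 CPM in knockout and 3.81 CPM in wild type, without overlap. Within that sum Hist1h1d alone averaged 0.688 CPM in knockout and 2.40 CPM in wild type. With wild type replicates 2 to 4 alone the linker ratio was 0.392. A further linker gene outside the clusters, H1f0, the replacement H1 of differentiated cells, was far more abundant and is named after its values were seen. It averaged 274.2 ± 36.8 CPM in knockout and 246.1 ± 25.1 CPM in wild type (log2 fold change 0.16 ± 0.12; edgeR adjusted p = 0.497).

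**Figure D2:**
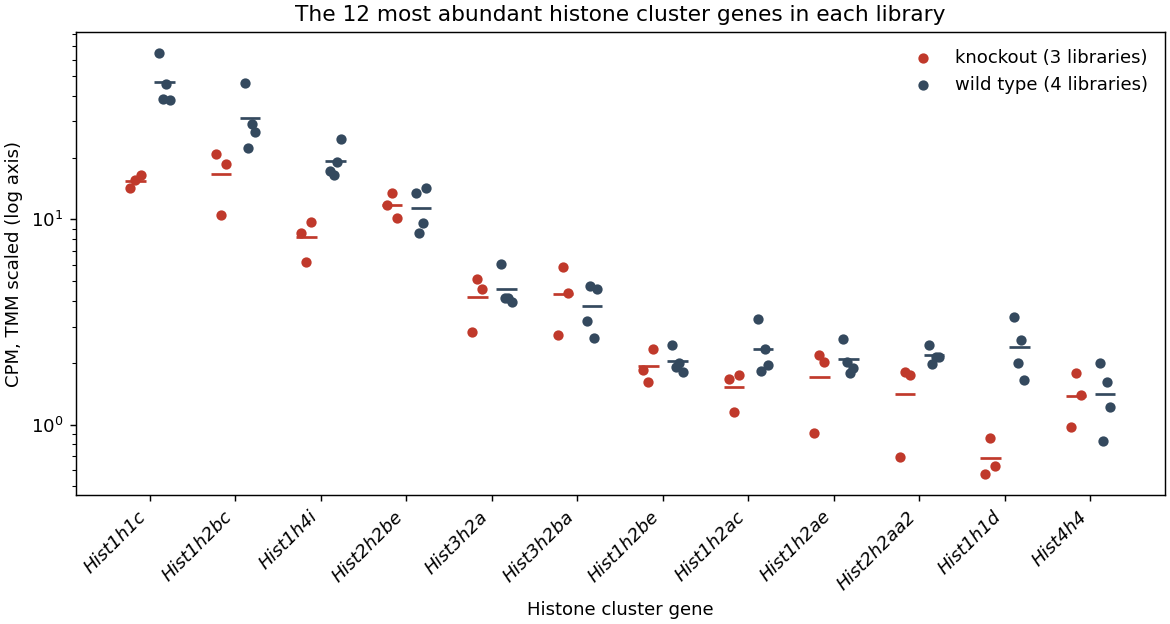
CPM (log axis) of the 12 members with the highest mean, knockout libraries (3) left of wild type libraries (4) for each gene; points are libraries and bars group means. The groups are apart for Hist1h1c, Hist1h2bc, Hist1h4i, Hist1h2ac, Hist2h2aa2 and Hist1h1d, with knockout lower in each.

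Among the core genes, Hist1h4i was the 1 member of 31 that fell. It encodes H4, which pairs with H3 in the centre of the nucleosome, and was the most abundant H4 member. It had 8.62, 6.18 and 9.75 CPM in knockout replicates 3 to 5, against 17.3, 16.5, 18.9 and 24.6 CPM in wild type replicates 1 to 4. Every knockout library was below every wild type library, and here wild type replicate 4 was the highest. This was a log2 fold change of -1.24 ± 0.19 (SE; adjusted p = 0.00784 in edgeR), a 2.37-fold lower mean in knockout. It was -1.29 without wild type replicate 1 (edgeR adjusted p = 0.0157).

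The other H4 members did not pass the test. Hist4h4, the isolated H4 gene of chromosome 6, had 0.968, 1.79 and 1.4 CPM in knockout replicates 3 to 5, against 2.0, 0.830, 1.62 and 1.22 CPM in wild type replicates 1 to 4 (log2 fold change -0.01 ± 0.34; edgeR adjusted p = 0.986). Hist1h4d had 0.665, 1.28 and 0.770 CPM in knockout, against 0.339, 1.10, 0.739 and 0.667 CPM in wild type (log2 fold change 0.34 ± 0.40; edgeR adjusted p = 0.663). The groups overlapped for both. The summed H4 level was 12.5 ± 1.32 CPM in knockout and 24.0 CPM in wild type, and Hist1h4i held most of it in both groups.

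H2B, which pairs with H2A, was the class with the highest summed level: 39.2 ± 2.90 CPM in knockout and 53.6 CPM in wild type. Hist1h2bc, the most abundant H2B member, had 20.8, 10.5 and 18.5 CPM in knockout replicates 3 to 5, against 46.2, 22.2, 29.3 and 26.7 CPM in wild type replicates 1 to 4. The groups did not overlap, but knockout replicate 3 came close to wild type replicate 2. The log2 fold change of -0.91 ± 0.28 did not pass (SE; edgeR adjusted p = 0.0935), and without wild type replicate 1 it was -0.65 (edgeR adjusted p = 0.167). The call depended on the method: DESeq2 gave an adjusted p of 0.0116, edgeR with no filter on low counts 0.0333, and the adjusted p in the authors' deposited table was 0.0103.

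Hist2h2be, the next most abundant H2B member, lies outside the Hist1 cluster. It had 11.7, 13.5 and 10.1 CPM in knockout replicates 3 to 5, against 13.4, 8.59, 9.55 and 14.1 CPM in wild type replicates 1 to 4. The knockout libraries lay within the wild type range. This was a log2 fold change of 0.05 ± 0.19 (SE; adjusted p = 0.919 in edgeR), with a 95% interval from -0.38 to 0.47 that does not reach the fold changes of Hist1h1c or Hist1h4i.

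Hist3h2ba had 2.72, 5.85 and 4.39 CPM in knockout replicates 3 to 5, against 3.18, 4.71, 2.66 and 4.55 CPM in wild type replicates 1 to 4 (log2 fold change 0.20 ± 0.29; edgeR adjusted p = 0.739). Hist1h2be had 1.85, 1.61 and 2.34 CPM in knockout, against 2.44, 1.90, 2.0 and 1.79 CPM in wild type (log2 fold change -0.07 ± 0.23; edgeR adjusted p = 0.888). The groups overlapped for both. Hist2h2bb, named after its values were seen, had the lowest log2 fold change of the class, -1.37 ± 0.51 (edgeR adjusted p = 0.150), on 2 to 19 reads in knockout and 20 to 34 in wild type. In GENCODE M21 its identifier belongs to a non-coding gene, Gm42743.

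H2A transcripts overlapped between the groups as a sum, with 11.2 ± 3.36 CPM in knockout and 13.3 CPM in wild type. Hist3h2a, the most abundant, had 2.81, 5.14 and 4.59 CPM in knockout replicates 3 to 5, against 6.06, 4.15, 4.13 and 3.96 CPM in wild type replicates 1 to 4 (log2 fold change -0.12 ± 0.24; edgeR adjusted p = 0.815). Hist1h2ae had 0.907, 2.18 and 2.03 CPM in knockout, against 2.61, 2.03, 1.78 and 1.89 CPM in wild type (log2 fold change -0.27 ± 0.31; edgeR adjusted p = 0.661). In both genes knockout replicate 3 was the lowest of all libraries and the groups overlapped. Hist1h2ac had 1.66, 1.15 and 1.74 CPM in knockout, against 3.25, 1.83, 2.33 and 1.96 CPM in wild type (log2 fold change -0.62 ± 0.28; edgeR adjusted p = 0.227). Hist2h2aa2 had 0.696, 1.81 and 1.74 CPM in knockout, against 2.44, 1.98, 2.14 and 2.14 CPM in wild type (log2 fold change -0.61 ± 0.32; edgeR adjusted p = 0.299). Neither gene passed, although their groups did not overlap, and Hist2h2aa2 was at -0.29 without knockout replicate 3 (edgeR adjusted p = 0.549).

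H3 was the class with the lowest summed level, 2.54 ± 0.769 CPM in knockout and 3.11 CPM in wild type, and the groups overlapped. Hist1h3c, its most abundant member, had 0.847, 1.17 and 1.97 CPM in knockout replicates 3 to 5, against 0.880, 1.46, 0.931 and 1.56 CPM in wild type replicates 1 to 4 (log2 fold change 0.12 ± 0.35; edgeR adjusted p = 0.870). Hist1h3d averaged 0.564 ± 0.0920 CPM in knockout and 0.825 ± 0.235 CPM in wild type (log2 fold change -0.54 ± 0.32; edgeR adjusted p = 0.362). Hist1h3g averaged 0.367 ± 0.122 CPM in knockout and 0.674 ± 0.270 CPM in wild type (log2 fold change -0.85 ± 0.41; edgeR adjusted p = 0.262). None of the 4 H3 members passed.

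The 17 core members not described so far averaged between 0.274 and 1.31 CPM in knockout and between 0.348 and 1.10 CPM in wild type, Hist2h2bb included. Apart from that gene their groups overlapped, and their log2 fold changes ran from -0.71 to 0.35, with none called. Over the 33 members not called, the 95% interval reached below -1 in 16 and above 1 in 7, and lay within both bounds in 11. A 2-fold change could therefore not be seen or set aside in most of them. Depth was low for most members: 30 of the 36 averaged under 100 reads per library, with a median of 26.3.

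**Figure D3:**
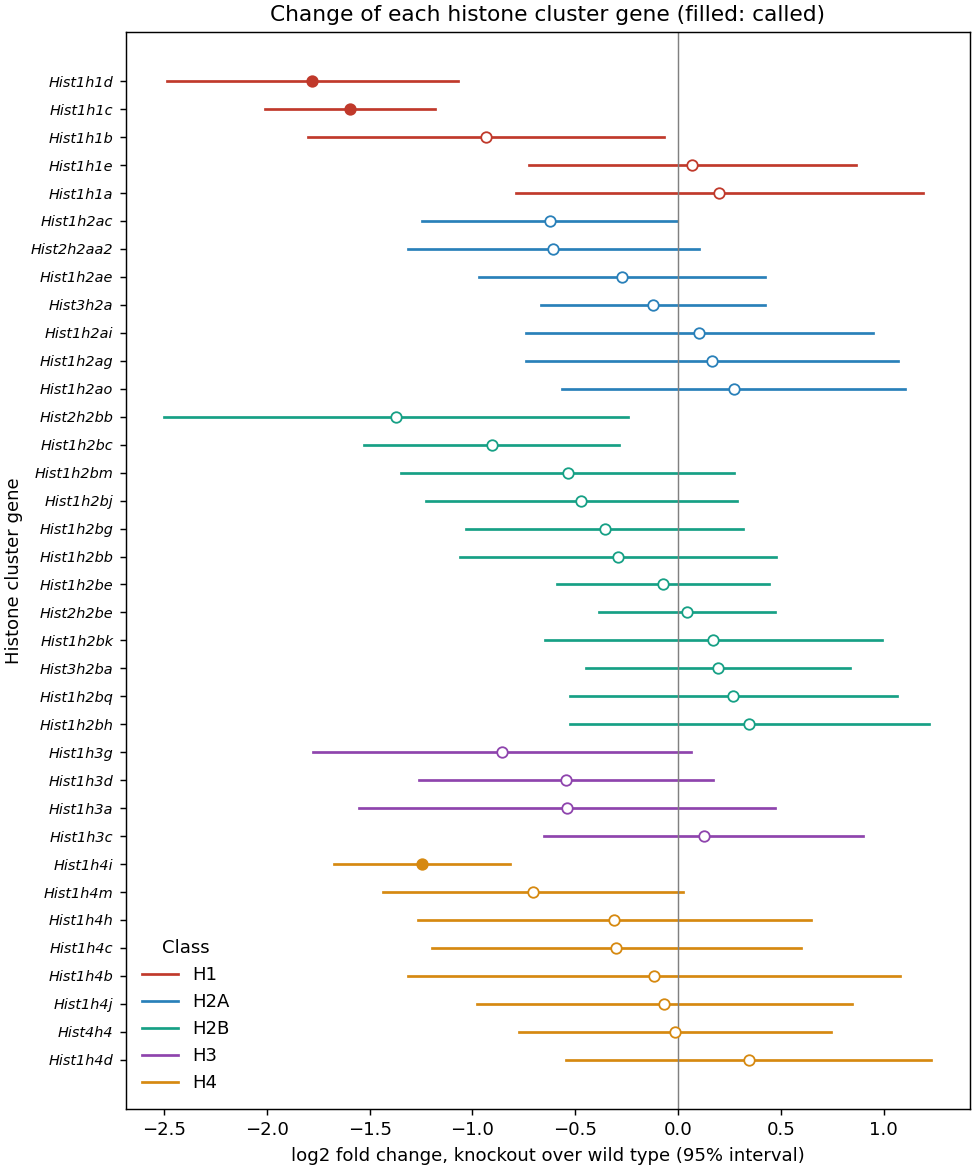
Points are log2 fold changes, knockout over wild type, with 95% intervals, for all 36 members by class; filled points were called. The 3 called members are Hist1h1d at -1.78, Hist1h1c at -1.60 and Hist1h4i at -1.24, and most other intervals cross 0.

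The members' summed level was 82.8 ± 6.55 CPM in knockout and 144.6 ± 26.7 CPM in wild type, a ratio of 0.573. In each library it was 77.5, 80.7 and 90.1 CPM in knockout replicates 3 to 5, against 182.8, 120.8, 136.2 and 138.4 CPM in wild type replicates 1 to 4. The groups did not overlap, and wild type replicate 1 was the highest. The ratio was 0.628 against wild type replicates 2 to 4. Core genes summed to 65.4 ± 5.50 CPM in knockout and 94.0 ± 15.0 CPM in wild type, a ratio of 0.696. Sums over members not called were 58.4 CPM in knockout and 76.1 CPM in wild type. The groups were narrowly apart, at 63.25 CPM in the highest knockout library and 63.62 CPM in the lowest wild type library. Within these sums Hist1h2bc alone averaged 16.6 CPM in knockout and 31.1 CPM in wild type. Sums over the 32 members under 10 CPM were 30.8 CPM in knockout and 36.0 CPM in wild type, with overlap.

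By cluster, Hist1 genes summed to 59.4 ± 7.74 CPM in knockout and 120.5 CPM in wild type, without overlap. Hist2 genes summed to 13.5 CPM in knockout and 14.3 CPM in wild type, and Hist3 genes to 8.50 CPM in knockout and 8.35 CPM in wild type, both with overlap. All 3 members that fell lie in Hist1, which holds 30 of the 36. Whether clusters or classes differ from each other in their change was not tested. Class medians of the log2 fold change were -0.93 for H1, -0.12 for H2A, -0.18 for H2B, -0.54 for H3 and -0.21 for H4, over the members of each. Several of them shifted when a single library was left out. Of these shifts, only those of H1 without wild type replicate 1 and of H4 without knockout replicate 4 went beyond the spread between libraries. The H1 median was -0.61 and the H2B median -0.08 without wild type replicate 1, and the H2A median was -0.05. Without knockout replicate 3 the medians were 0.09 for H2A, -0.09 for H2B and -0.03 for H4. Without knockout replicate 4 they were -0.30 for H2A and -0.53 for H4. The H2A median was -0.26, the H2B median -0.27 and the H4 median -0.32 without knockout replicate 5, and the H4 medians without wild type replicates 3 and 4 were -0.34 and -0.08. The H2A median was -0.19 without wild type replicate 4, and 0.01 with total-count scaling.

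**Figure D4:**
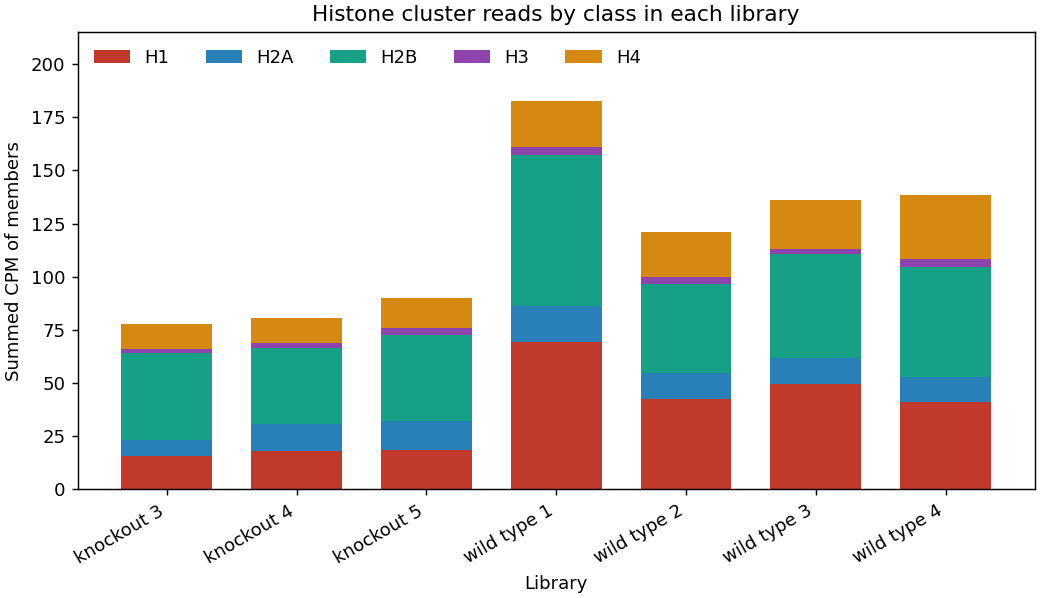
Bars give the summed CPM of the members in each library, knockout libraries left of wild type libraries, split by class. The knockout bars end between 77.5 and 90.1 CPM and the wild type bars between 120.8 and 182.8 CPM; the H1 segment is 15.9 to 18.4 CPM in knockout and 41.1 to 69.4 CPM in wild type.

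Levels per exon length placed 3 members well above the rest. Over all 7 libraries Hist1h2bc had 21.5 CPM per kb of exon, Hist1h1c 21.4 and Hist1h4i 20, and the next were Hist3h2ba at 6.53 and Hist2h2be at 4.42. Hist1h1c had 9.91 CPM per kb in knockout and 30 in wild type, and Hist1h4i had 11.3 in knockout and 26.6 in wild type. Hist1h2bc had 14.4 CPM per kb in knockout and 26.9 in wild type. Hist3h2ba, by contrast, had 7.04 CPM per kb in knockout and 6.15 in wild type. Hist1h1d was near the low end, at 0.0926 CPM per kb in knockout and 0.323 in wild type, over an annotated exon of 7425 bases. That exon, chr13:23553262-23560686, contains the RefSeq promoter window of the gene, chr13:23554782-23555081. The 2 annotations therefore differ on its start, and its level per kb is uncertain. The exon lengths come from GENCODE M21, and the release behind the counts is not known here.

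**Figure D5:**
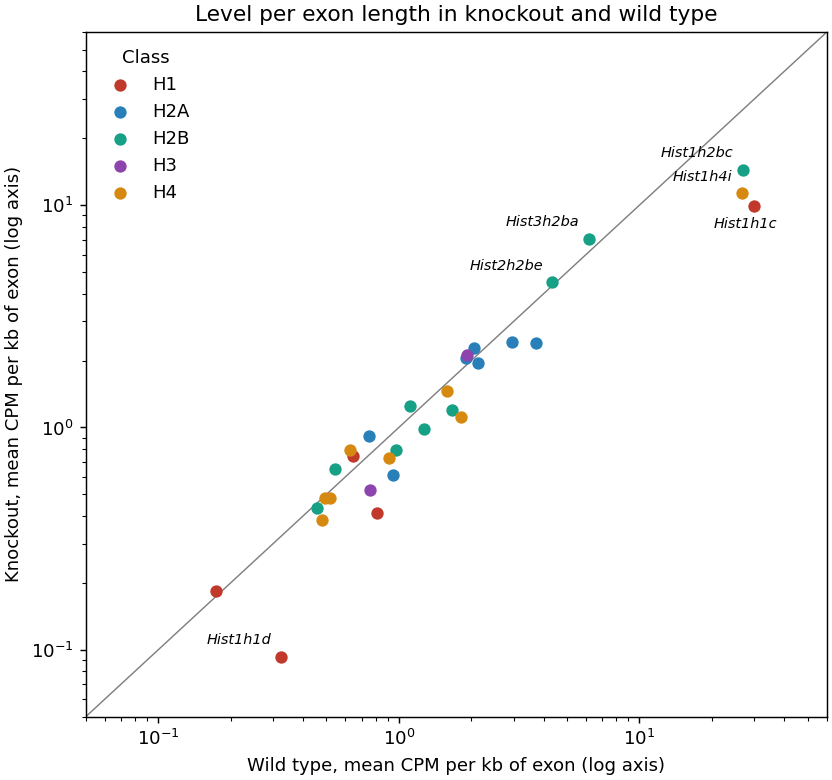
Mean CPM per kb of exon in knockout (vertical, log axis) against wild type (horizontal, log axis) for the 31 members with an M21 coding transcript, coloured by class; the line marks equal levels. Hist1h1c, Hist1h2bc and Hist1h4i sit at the upper end and below the line, and Hist2h2be lies on it.

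The annotated 3′ end was set beside these levels, since poly(A) mRNA of histone genes usually ends past the stem-loop. In 14 members the M21 transcript ran at least 100 bases past the stem-loop, in 11 it ended closer, and in 6 no stem-loop of the searched form was found. All 3 members that fell were among the 14: the transcript ran 840 bases past it in Hist1h1c, 4884 in Hist1h1d and 330 in Hist1h4i. Hist1h1e, which did not pass, also ran 1153 bases past. The median log2 fold change was -0.20 in the 14, -0.29 in the 11 and 0.07 in the 6. Whether the annotated end goes with the change was not tested. The median level was 0.750 CPM per kb in the 14, 1.47 in the 11 and 1.33 in the 6, but the length divided by holds the extension itself. Without division by length the medians were 1.79 CPM, 0.609 CPM and 0.982 CPM in the same order, so the order depends on the scale. Hist1h2bc, among the 6, is spliced from 2 exons that span chr13:23684199-23692908. Also among the 6, the annotated transcripts of Hist1h2ai, Hist1h1a and Hist1h1b had only 393, 741 and 743 bases. They may stop before a stem-loop, so its absence in these genes may be a matter of annotation. Runs of CCCC, the kind of C-rich stretch that Pcbp2 binds, occurred at 4.49 per kb in the Hist1h1c transcript, 1.35 in Hist1h1d and 0 in Hist1h4i, against a median of 3.42 over tested coding genes. The Hist1h1d value was taken over the annotated exon of 7425 bases, whose start is uncertain.

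Among members with a coding match in GENCODE M21, those nearest to the genes that fell, on either side, did not pass the test. Members without a match and genes other than members were not looked at, so closer genes may exist. The nearer matched member is given for each. Hist1h4i lies on chr13:22040636-22041362, minus strand, and Hist1h2ag, 1097 bases away, had a log2 fold change of 0.16 (edgeR adjusted p = 0.852). Hist1h1c lies on chr13:23738808-23740367, plus strand, and Hist1h3c, 4605 bases away, had 0.12 (edgeR adjusted p = 0.870). Hist1h1d lies on chr13:23553262-23560686, plus strand, and Hist1h2ae, 9830 bases away, had -0.27 (edgeR adjusted p = 0.661). Among 4 divergent pairs of an H2A and an H2B gene within 1000 bases, none of whose genes was called, Hist1h2ac and Hist1h2bc, 250 bases apart, were at -0.62 and -0.91. Hist1h2ae and Hist1h2bg were at -0.27 and -0.36, Hist1h2ao and Hist1h2bq both at 0.27, and Hist1h2ag and Hist1h2bj at 0.16 and -0.47. The first of these pairs had 0.801 CPM per kb for Hist1h2ac and 21.5 for Hist1h2bc over all libraries.

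Histone genes are alike in sequence, and reads that fit several places were not assigned. The share of reads with more than 1 alignment was 11.3 to 14.7% in knockout and 15.2 to 19.6% in wild type libraries. Of all 50-base stretches of a member's transcript, a median of 32.0% also occurred in another gene, and in 9 members more than 50%. The shares were 8.54% for Hist1h1c, 2.25% for Hist1h1d and 28.9% for Hist1h4i, while Hist2h2aa2 had 100% and Hist1h2bq 97.3%. Hist1h1e and Hist1h2be overlap on the same strand, as do Hist1h2ac with Gm24991, Hist2h2aa2 with Gm20634 and Hist3h2a with Trim17, so their counts are uncertain. The labels do not say whether counting used the strand, so reads of antisense genes cannot be told apart either.

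Among genes that work with these histones, few passed the test. Of 11 tested replacement histone genes, most of which are made outside S phase and polyadenylated, 2 fell and 0 rose. Their median log2 fold change was -0.10. H2afj, an H2A variant, averaged 19.7 ± 4.02 CPM in knockout and 32.4 ± 3.10 CPM in wild type (log2 fold change -0.71 ± 0.15; edgeR adjusted p = 0.0248). H3f3a, which encodes H3.3, averaged 1005 ± 89.3 CPM in knockout and 1431 ± 167.5 CPM in wild type (log2 fold change -0.51 ± 0.13; edgeR adjusted p = 0.0475). H2afz was at -0.36 (edgeR adjusted p = 0.121) and H2afx at -0.34 (edgeR adjusted p = 0.164). In these 4 genes, named for the smallest p of the list, all knockout libraries lay below all wild type ones. That was so in 10.8% of all tested genes, and the groups overlapped in the other tested genes of the list.

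Of 24 histone chaperone genes, 1 fell and 0 rose, with a median of -0.01. Asf1b, which carries H3 and H4 to newly made DNA, averaged 44.7 ± 7.08 CPM in knockout and 77.2 ± 9.81 CPM in wild type (log2 fold change -0.79 ± 0.14; edgeR adjusted p = 0.0132). Its relative Asf1a was at -0.28 (edgeR adjusted p = 0.284). Hjurp, the chaperone of centromeric H3, was at 0.31 (edgeR adjusted p = 0.105), and Dnajc9, a chaperone of H3 and H4, at -0.28 (edgeR adjusted p = 0.140).

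None of the 28 genes listed for histone mRNA 3′-end processing passed in edgeR. The list also holds genes of histone transcription and the cell cycle, such as Npat, Cdk2, Ccne1 and Ccne2. At an unadjusted p under 0.05, 1 of the 28 was lower, Ccne1, and 1 higher, and the median of the list was 0.04. Those with the smallest p were Cpsf3, the endonuclease that cuts histone pre-mRNA, at 0.18 (edgeR adjusted p = 0.209), Ccne1 at -0.28 (edgeR adjusted p = 0.222), Cpsf1 at 0.25 (edgeR adjusted p = 0.248) and Cstf2 at 0.22 (edgeR adjusted p = 0.250). Of 11 genes of histone mRNA decay, 1 rose and 0 fell, with a median of 0.00. Zcchc11, a uridylyltransferase, averaged 175.9 ± 14.6 CPM in knockout and 132.7 ± 7.87 CPM in wild type (log2 fold change 0.41 ± 0.09; edgeR adjusted p = 0.0350). Slbp, the stem-loop binding protein, averaged 191.2 ± 22.1 CPM in knockout and 225.1 ± 35.6 CPM in wild type (log2 fold change -0.24 ± 0.14; edgeR adjusted p = 0.353). Zcchc6, a relative of Zcchc11, was at -0.26 (edgeR adjusted p = 0.361) and Lsm1 at -0.14 (edgeR adjusted p = 0.484).

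Of 10 genes of the general poly(A) machinery, 1 rose and 0 fell, with a median of 0.10. Cpsf6, a subunit of the cleavage factor that steers the choice of poly(A) site, averaged 236.4 ± 8.37 CPM in knockout and 170.0 ± 10.2 CPM in wild type (log2 fold change 0.48 ± 0.09; edgeR adjusted p = 0.0162). Its partner Cpsf7 was at 0.27 (edgeR adjusted p = 0.0892), Clp1 at -0.36 (edgeR adjusted p = 0.103) and Rbbp6 at 0.25 (edgeR adjusted p = 0.291). None of 25 S phase genes passed in edgeR, although 24 of them were negative, with a median of -0.20, and 9 were lower at an unadjusted p under 0.05. The smallest p were those of Rrm2, at -0.62 (edgeR adjusted p = 0.0826), Tyms at -0.36 (edgeR adjusted p = 0.0862), Mcm5 at -0.32 (edgeR adjusted p = 0.117) and Fen1 at -0.34 (edgeR adjusted p = 0.118).

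Marker genes of several cell types moved with the genotype. Of 14 erythroid markers 10 were lower and 0 higher, with a median log2 fold change of -1.48. They summed to 12410 to 16770 CPM in knockout and 50400 to 90670 CPM in wild type. That sum includes the globin genes Hba-a1, Hbb-bs and Hbb-bt, so it need not follow the other markers. Of 8 macrophage markers 6 were lower, with sums of 167.2 to 212.2 CPM in knockout and 255.6 to 299.8 CPM in wild type, and of 6 megakaryocyte markers 5 were lower, with sums of 141.9 to 160.5 CPM in knockout and 266.9 to 368.1 CPM in wild type. Of 8 endothelial markers 3 were higher, with sums of 280.0 to 363.0 CPM in knockout and 207.3 to 273.7 CPM in wild type. Of 12 heart and muscle markers 2 were higher, with sums of 169.6 to 506.7 CPM in knockout and 148.2 to 277.1 CPM in wild type. Of 8 mesenchyme markers 1 was lower, and of 10 hepatoblast markers 0 passed in edgeR and 1 was lower at an unadjusted p under 0.05, with summed levels that overlapped between the groups. No marker was at 0 reads in every library. In bulk tissue fewer cells of a type and less RNA per cell cannot be told apart, and the part of these cell types in the levels of Hist1h1c, Hist1h1d and Hist1h4i was not tested.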

How the data were processed

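Messenger RNA of fetal liver was sequenced in 3 Pcbp2 knockout and 4 wild type libraries, made with a TruSeq stranded mRNA kit from Trizol RNA, per the labels' protocols. The submitters' processing notes name cutadapt 1.4.2, TopHat2, HTSeq, DESeq2, DESeq and build mm10; their settings and the annotation release are not stated. The authors deposited raw read counts for 38924 genes per library, with 5 HTSeq summary lines that were kept out of library sizes, and a table of 15548 genes. In that deposited table the mean of normalized counts is a signal over all samples, the change is a log2 fold change with its standard error, the test score is a Wald statistic, and p-values are unadjusted and adjusted. The sign of its fold change matched the counts for 99.2% of genes.

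The counts went into edgeR 4.0.16 (R 4.3.3): filterByExpr (minimum count 10), TMM scaling, a quasi-likelihood fit of group on all 7 libraries and Benjamini-Hochberg adjustment over 16226 genes, with calls at 0.05. CPM carry the TMM factors and are given with SDs; fold changes are given with standard errors. The fit was tested on simulated counts. Between 31898339 and 44544889 reads per library were assigned to genes, and intervals cover counting and library spread only. No pair of libraries agreed within sampling noise (lowest chi-square per degree of freedom 32.1 over 21 pairs). Named are every called member, the 12 most abundant, the 3 most abundant of each class, all linker genes, each pathway list's called genes and its 4 smallest p, and Pcbp2. The members and the gene lists were chosen with earlier results of these data known. Gene structures came from GENCODE M21 by identifier without version, and promoters from RefSeq, GRCm38.p6. Alternatives were RLE and total-count scaling, globin genes left out, 2 other filters, limma-voom (limma 3.58.1), DESeq2 1.42.0, a replicate block, and each library left out in turn. The class sums without wild type replicate 1 were chosen after the data were seen.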

Additional observations from a re-analysis of the deposited data

Results flagged for a closer look

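Wild type replicate 1 stood apart from the 3 other wild type libraries in 4 of 36 groups of values looked at. Chance gives about 1 in 20, but these groups are not independent, so the excess may be overstated. The linker and H1 sums are the same, and Hist3h2a is part of the H2A sum. In each of the 4, the gap from wild type replicate 1 to the nearest library was larger than chance gives for 4 samples at the 95% level. Hist1h1b was at 0.982 CPM there, against 0.437 to 0.520 CPM in wild type replicates 2 to 4. Hist3h2a was at 6.06 CPM, against 3.96 to 4.15 CPM, and the summed H2A level was 16.7 CPM, against 11.7 to 12.3 CPM. Pcbp2 was at 164.8 CPM, against 329.0 to 347.3 CPM.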

How the results depend on the processing

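Hist1h1c and Hist1h4i were called lower under all 15 alternatives, with log2 fold changes from -1.68 to -1.40 and from -1.57 to -1.07. Hist1h1d was called in 13 of the 14 alternatives that kept it, at -1.98 to -1.51, and lost without knockout replicate 5 (edgeR adjusted p = 0.0796). Hist1h2bc was called in 3 of 15. Members called lower numbered 4 with no filter, under DESeq2 and under the replicate block. They numbered 2 where 5 CPM in at least 3 libraries was required, which left 4 members with a median of -1.07. Leaving out each library in turn gave 2 to 3 members called lower and 0 higher, member medians from -0.41 to -0.09, and 24 to 418 genes called higher and 116 to 753 lower.

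Genes called higher numbered 651 with total-count scaling, 617 with DESeq2 and 852 with the replicate block, against 258, and genes called lower 1057 with DESeq2 and 1204 with the block, against 556. Total-count scaling moved the median of all genes to 0.14, and 37.6% of called genes were then lower, against 68.3%. It turned Hist3h2a to 0.01, Hist1h2be to 0.05 and Hist4h4 to 0.13; Hist4h4 was 0.06 with limma-voom and Hist1h3c -0.29 with the block. The cause of these shifts was not tested, and none of these genes was called.

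Leaving out single libraries turned the sign of Hist1h1a (-0.09 to 0.53), Hist1h1e (-0.14 to 0.30), Hist1h2ae (-0.49 to 0.03), Hist3h2a (-0.30 to 0.09), Hist1h2be (-0.23 to 0.05), Hist2h2be (-0.08 to 0.17), Hist3h2ba (-0.09 to 0.44), Hist1h3c (-0.26 to 0.36) and Hist4h4 (-0.25 to 0.19), none of them called. The replicate block uses numbers 3 and 4, the only ones in both groups. Its group change rests on those libraries, and little is left to estimate their spread, so its calls are less certain. Deviations of libraries with the same number correlated at 0.319 and 0.258 across genes, and nothing in the labels says that numbers pair the libraries. Under the block Hist1h2bc was at -0.92 (edgeR adjusted p = 0.00012).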
